A study of Mus musculus with 4 samples.

Results

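The genes described here are 32 enzymes and transporters of glucose breakdown: 4 glucose and lactate transporters, 10 genes of upper and 5 of lower glycolysis, 3 that set the fate of pyruvate, 7 of the pentose phosphate pathway and 3 of side branches. They were taken by name from the 22056 genes of the expression tables, and all 32 were present in both tables. The rule picks them by name, and the list was drawn up with earlier results of these data known. Regulatory T cells (Treg), a class of CD4 T cells that holds back other immune cells and is marked by the transcription factor Foxp3, were sorted as live cells positive for CD4, the T cell receptor beta chain and the reporter YFP, at more than 95% purity. They came from C57BL/6 mice of the genotypes ICOS WT and ICOS FC. The title of the series speaks of ICOS-deficient Treg, ICOS being a costimulatory receptor of T cells, but the labels do not spell out the alleles, what drives the YFP, the age of the mice or whether cells of several animals were pooled. One pair of libraries came from the spleen at steady state, and the other pair, 1 day after oxazolone was applied, from the draining lymph node (LN) of the neck. Oxazolone is a contact sensitizer. Tissue and challenge therefore differ together and cannot be told apart.

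Glycolysis splits glucose into pyruvate in the cytosol and yields ATP and NADH without oxygen. Pyruvate either enters the mitochondria or is turned to lactate, which restores NAD and leaves the cell. The pentose phosphate pathway branches off after the first step, makes NADPH in its oxidative arm and ribose for nucleotides in its non-oxidative arm. T cells that leave rest and grow are known to use more glucose, and how far Treg do so depends on their state.

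Each group was 1 library of single cells, so no difference between groups has a replicate check and no p-value is given. The libraries held 4995 cells and 27183614 UMIs (unique molecular identifiers, each marking 1 captured transcript) for ICOS WT spleen, 5917 cells and 28256866 UMIs for ICOS FC spleen, 1897 cells and 15045805 UMIs for ICOS WT LN, and 2066 cells and 17330489 UMIs for ICOS FC LN. Values are summed UMIs of a gene per 1000000 UMIs (CPM, counts per that number), and intervals in brackets are exact 95% intervals for counting error alone. A gene is called higher or lower below when it reached 5 CPM in at least one of the libraries compared, differed by at least 1.5-fold and had an interval that excluded equality. The targeted gene does not check the genotype labels here. Icos was at 112 CPM in the ICOS WT and 258 CPM in the ICOS FC spleen library, and at 599 and 928 CPM in the LN libraries. It was thus higher in both libraries labelled ICOS FC, no value here places the counted 3' tags against a deleted stretch, and an exchange of labels, which would turn the sign of every ICOS FC over ICOS WT ratio, was not tested. Foxp3 lay between 53.2 and 72.2 CPM in the 4 libraries, and the summed CD8 T and NK cell markers were at 84.4 and 65.3 CPM in spleen (WT, FC) and 189 and 91.9 CPM in LN. Erythroid markers were at or below 0.399 CPM in all 4. The LN libraries shared 30 cell barcodes with each other, and every other pair of libraries shared 1 to 10.

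The glucose genes as a whole took a larger part of the RNA in the LN than in the spleen libraries. Their summed level was 3292 CPM in the ICOS WT and 3361 CPM in the ICOS FC spleen library, against 4574 and 4470 CPM in the LN libraries. Lower glycolysis supplied most of the gap, with 1468 and 1549 CPM in spleen (WT, FC) and 2219 and 2164 CPM in LN. Oxidative pentose phosphate genes summed to 173 and 175 CPM in spleen and to 175 and 191 CPM in LN. In the ICOS WT libraries 11 of the 29 members measured were called higher in LN, where 13.7% of all genes were, and 1 was called lower, against 2.67% of all genes. In the ICOS FC libraries 12 of 29 were called higher (15.6% of all genes) and 1 lower (4.22%). The median log2 ratio of LN over spleen was 0.34 over the members and 0.13 over all genes for ICOS WT, and 0.45 and 0.12 for ICOS FC. A set of 9 members was called higher in both pairs, which share no library (10.7% of all genes): Hk2, Aldoa, Tpi1, Pgam1, Pkm, Ldha, Slc16a1, Slc16a3 and Pgm2. Ldhb was called lower in both (1.76% of all genes).

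**Figure D1:**
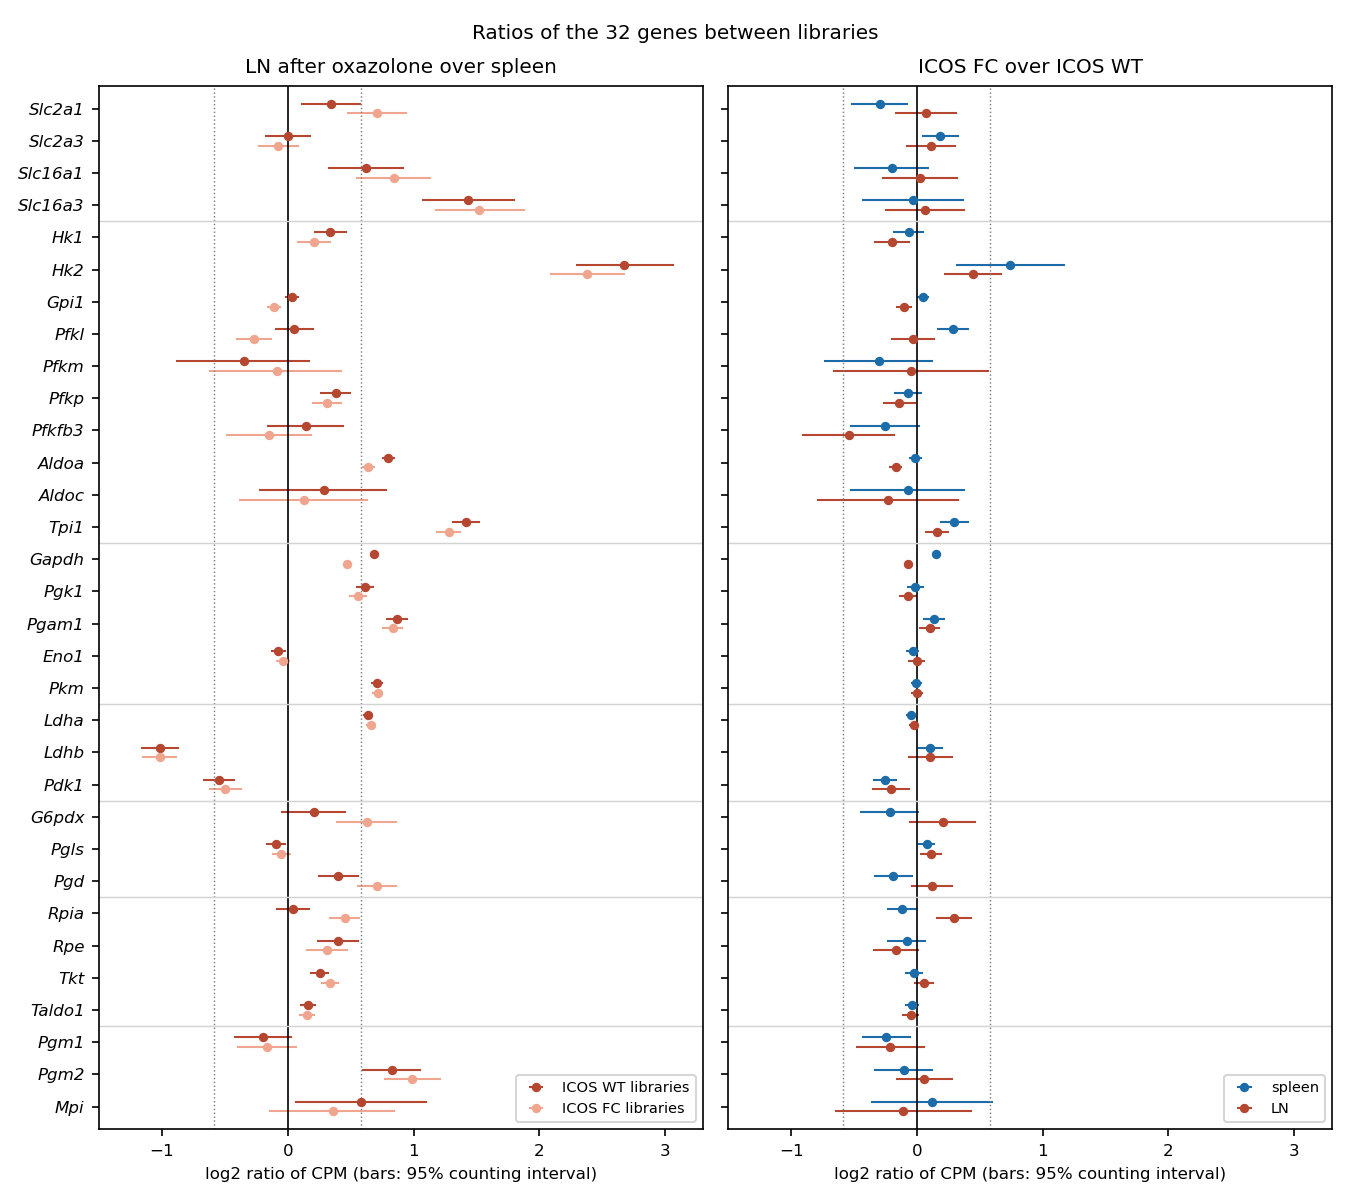
Log2 ratio of CPM (horizontal axis) for each of the 32 genes (rows, grouped by role with grey lines), LN over spleen on the left and ICOS FC over ICOS WT on the right; points are ratios, bars exact 95% counting intervals, dotted lines 1.5-fold. Hk2 lies farthest right in the left panel at 2.67 and 2.38, Ldhb farthest left at -1.02 in both genotypes, and in the right panel no gene with 5 CPM passes the dotted lines with its point.

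Among the transporters, Slc16a3, which encodes the lactate exporter MCT4, was at 3.79 and 3.72 CPM in the ICOS WT and ICOS FC spleen libraries and at 10.2 and 10.7 CPM in LN. Its log2 ratio was 1.43 [1.06, 1.81] for WT and 1.52 [1.17, 1.88] for FC, the brackets giving the interval. Slc16a1, which encodes the monocarboxylate transporter MCT1, was at 7.39 and 6.44 CPM in spleen and at 11.4 and 11.5 CPM in LN. Both LN libraries thus lay above both spleen libraries for either lactate transporter. Slc2a1, the gene of the glucose transporter GLUT1, was at 13.0 and 10.6 CPM in spleen and 16.5 and 17.3 CPM in LN, and passed the fold threshold for ICOS FC only, at 0.71 against 0.34 for ICOS WT; the difference between those ratios was not tested. Slc2a3, the gene of GLUT3, lay between 25.2 and 28.7 CPM in all 4 libraries.

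In upper glycolysis the largest ratio belonged to Hk2, an inducible hexokinase, the enzyme that commits glucose to the cell by phosphorylating it. Hk2 was at 2.65 CPM (72 UMIs) in the ICOS WT and 4.42 CPM (125 UMIs) in the ICOS FC spleen library, and at 16.9 CPM (254 UMIs) and 23.0 CPM (398 UMIs) in the LN libraries. Its log2 ratio of LN over spleen was 2.67 [2.29, 3.07] for WT and 2.38 [2.08, 2.68] for FC, so that both LN libraries stood well above both spleen libraries. Hk1, the hexokinase found in most cells, differed less, at 40.6 and 38.8 CPM in spleen and 51.4 and 44.8 CPM in LN. Tpi1, triose phosphate isomerase, was at 40.9 and 50.3 CPM in spleen and 109 and 122 CPM in LN, a log2 ratio of 1.42 [1.31, 1.53] and 1.28 [1.18, 1.38]. Aldoa, the main aldolase, was at 227 and 226 CPM in spleen and 395 and 352 CPM in LN. Gpi1, which interconverts glucose and fructose phosphates, was at 249.4 and 257 CPM in spleen and 256 and 238 CPM in LN, with no order by tissue. The phosphofructokinase genes Pfkl and Pfkp, whose products catalyse the main regulated step, stayed under the fold threshold in the 4 comparisons of whole libraries, with levels of 33.8 to 41.3 CPM for Pfkl and 45.2 to 61.8 CPM for Pfkp. Pfkfb3, which makes the activator of phosphofructokinase, was at 6.52 to 9.50 CPM. Pfkm, Aldoc and Mpi never reached 5 CPM.

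In lower glycolysis 4 of 5 genes were called higher in LN for ICOS WT and 2 for ICOS FC. Gapdh was at 744 and 825 CPM in spleen and 1199 and 1143 CPM in LN, and passed the fold threshold for ICOS WT, at a log2 ratio of 0.69 [0.66, 0.72], but not for ICOS FC, at 0.47 [0.44, 0.50]. Pgk1, which makes the first ATP of the pathway, was at 127 and 126 CPM in spleen and 194 and 185 CPM in LN, with ratios of 0.61 and 0.56 on either side of the fold threshold. Pgam1, phosphoglycerate mutase, was at 72.5 and 79.6 CPM in spleen and 132 and 142 CPM in LN. Pkm, pyruvate kinase, was at 286 and 285 CPM in spleen and at 467 CPM in both LN libraries. Eno1, enolase, was the exception, at 239 and 233 CPM in spleen and 227 CPM in both LN libraries; it stands between Pgam1 and Pkm in the pathway. The processed retrocopy Eno1b, which can take reads of Eno1, was at no more than 1.15 CPM.

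The genes at the pyruvate branch differed in opposite directions. Ldha, whose subunit favours turning pyruvate to lactate, was at 391 and 380 CPM in spleen and 609 and 600 CPM in LN, a log2 ratio of 0.64 [0.60, 0.68] and 0.66 [0.62, 0.70]. Ldhb, whose subunit favours the reverse reaction, was at 60.8 and 65.5 CPM in spleen and 30.04 and 32.37 CPM in LN, with a log2 ratio of -1.02 in each genotype and intervals of [-1.17, -0.87] and [-1.16, -0.88]. Pdk1, a kinase that holds back pyruvate dehydrogenase and so keeps pyruvate out of the mitochondria, was also lower in LN by its counts, at 66.5 and 55.7 CPM in spleen and 45.6 and 39.5 CPM in LN. Its log2 ratio of -0.54 and -0.50 stayed just inside the fold threshold, and it passed when the libraries were scaled by the trimmed mean of M values.

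Of the 7 pentose phosphate genes none was called for ICOS WT and 2 were called higher in LN for ICOS FC. The median log2 ratio of the 3 oxidative genes was 0.20 for WT and 0.60 for FC, and that of the 4 non-oxidative genes 0.21 and 0.32, beside 0.13 and 0.12 over all genes. The oxidative genes G6pdx (glucose-6-phosphate dehydrogenase, the entry step) and Pgd (phosphogluconate dehydrogenase) were called higher in LN for ICOS FC, at log2 ratios of 0.63 and 0.71, and not for ICOS WT, at 0.21 and 0.40; the difference between the genotypes was not tested. G6pdx was at 11.9 and 10.3 CPM in spleen and 13.8 and 15.9 CPM in LN, and Pgd at 26.6 and 23.4 CPM in spleen and 35.2 and 38.2 CPM in LN. Pgls, the lactonase between them, was at 134 and 142 CPM in spleen and 126 and 137 CPM in LN. Of the 4 non-oxidative genes none was called in either pair, although for ICOS FC the intervals of all 4 lay above equality: Tkt (transketolase) was at 125 and 123 CPM in spleen and 149 and 155 CPM in LN, Taldo1 (transaldolase) at 198 and 193 and then 222 and 215 CPM, and Rpia and Rpe, which interconvert the pentose phosphates, at 23.9 to 57.8 CPM. On the side branch to glycogen, Pgm2 was at 11.2 and 10.4 CPM in spleen and 19.9 and 20.7 CPM in LN, while Pgm1 was at 13.0 to 17.3 CPM in all libraries. The symbols Pgm1 and Pgm2 changed places between annotation releases, so which phosphoglucomutase each row counts is uncertain.

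These counts depended on the scaling and on a small group of cells. Scaling the libraries by the trimmed mean of M values lowered the median ratio of all genes from 0.13 to -0.03 for ICOS WT. For ICOS FC that median became -0.02. With this scaling 6 of 29 members were higher and 2 lower in LN for each genotype, and the median of the members was 0.18 and 0.31. Of all genes, 838 of 8723 were then higher and 478 lower for WT, and 999 of 8697 higher and 645 lower for FC. Without the cells of LN cluster 4, described below, 5 of 29 members were higher and 1 lower for WT and 6 of 29 higher and 1 lower for FC. Of all genes, 1069 of 8707 were then higher and 232 lower for WT, and 1072 of 8672 higher and 261 lower for FC. Hk2, Tpi1, Slc16a3 and Pgm2 kept their calls in both of these settings and in both genotypes, as did Ldhb; in G1 cells outside cluster 4 Hk2 lost its call for ICOS WT, at a log2 ratio of 0.94, and Tpi1 for ICOS FC, at 0.46. Slc16a1 without cluster 4 had a log2 ratio of -0.18 and -0.03. In bulk sums such as these, fewer cells with a transcript and less RNA per cell cannot be told apart.

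Sequences upstream of the start sites are shown for 5 genes that were higher in LN in at least one genotype and for Ldhb and Pdk1, which were lower in LN by their counts, because HIF-1 and MYC, transcription factors known to act on glycolysis genes, bind the short motifs ACGTG (the core of the hypoxia response element) and CACGTG (the E-box). Each runs 5' to 3' on the gene's own strand over the 150 bases before a RefSeq start site (mouse GRCm38.p6), and capitals mark ACGTG on either strand. The stretches are chr6:82774455-82774604 (minus strand) for Hk2, chr7:46845654-46845803 (plus) for Ldha, chr7:126799255-126799404 (minus) for Aldoa, chrX:106186950-106187099 (plus) for Pgk1, chr19:41911721-41911870 (plus) for Pgam1, chr6:142507958-142508107 (minus) for Ldhb and chr2:71873074-71873223 (plus) for Pdk1. RefSeq gives 2 start sites with a window for Ldha and 3 for Aldoa, and the stretch with a match was chosen in each case after the matches were seen. The other Ldha stretch and the other 2 Aldoa stretches hold no match in their 150 bases. Pdk1 has 2 such start sites, and its other stretch holds no match either. Bases just after the start shown were found near the start of a GENCODE transcript of the gene, except for Ldha and Pgam1. Tpi1, which has none in its window, is not shown. The 5 are part of 14 members called higher in LN for ICOS WT or ICOS FC. Of the others, Slc16a1, Gapdh, G6pdx and Pgd hold no match in these 150 bases, and Slc2a1, Slc16a3, Pgm2 and a stretch of Pkm do. All 5 genes shown hold a match, so their contrast with Ldhb and Pdk1 depends on which genes were picked and is no result. None of the 7 overlaps an exon annotated in GENCODE M21; those of Ldha and Aldoa lie inside the annotated gene, between exons, and the other 5 lie just upstream of it.

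Hk2: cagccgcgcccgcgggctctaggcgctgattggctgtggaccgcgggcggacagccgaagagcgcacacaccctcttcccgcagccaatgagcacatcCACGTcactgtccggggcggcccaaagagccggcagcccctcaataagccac
Ldha: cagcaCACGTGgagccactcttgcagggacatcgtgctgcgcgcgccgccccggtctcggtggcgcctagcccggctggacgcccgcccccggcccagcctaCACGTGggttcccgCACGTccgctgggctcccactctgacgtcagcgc
Aldoa: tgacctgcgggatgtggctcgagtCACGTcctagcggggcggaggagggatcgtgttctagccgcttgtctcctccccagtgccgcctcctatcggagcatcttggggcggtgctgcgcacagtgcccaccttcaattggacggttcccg
Pgk1: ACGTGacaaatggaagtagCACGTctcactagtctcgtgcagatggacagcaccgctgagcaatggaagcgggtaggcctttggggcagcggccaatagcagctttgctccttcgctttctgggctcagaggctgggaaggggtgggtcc
Pgam1: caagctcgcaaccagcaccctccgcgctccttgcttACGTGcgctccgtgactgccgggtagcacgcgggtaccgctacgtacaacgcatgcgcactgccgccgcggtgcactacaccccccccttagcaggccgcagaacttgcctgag
Ldhb: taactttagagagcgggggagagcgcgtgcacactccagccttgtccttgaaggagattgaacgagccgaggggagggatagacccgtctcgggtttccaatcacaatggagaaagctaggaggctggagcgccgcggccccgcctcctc
Pdk1: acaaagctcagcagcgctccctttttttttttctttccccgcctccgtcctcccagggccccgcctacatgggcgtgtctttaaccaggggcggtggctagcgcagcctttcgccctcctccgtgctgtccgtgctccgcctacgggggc

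Counting a palindromic E-box once, the Ldha stretch holds 3 matches, starting at -145, -48 and -34, and the first and the second of them are full CACGTG E-boxes; Pgk1 holds 2, at -150 and -131, and Hk2, Aldoa and Pgam1 hold 1 each, at -52, -126 and -114. The Ldhb and Pdk1 stretches hold none. In the longer windows from 250 bases before to 50 after the start, ACGTG was found on either strand for 17 of the 31 members with a window (54.8%), 21.8% of the 27025 genes with a window and 30.6% of the 7062 genes of at least 5 CPM in a library. It was found for 8 of the 9 members called higher in LN in both genotypes, all but Tpi1, and for 9 of the other 22. A gene counts here if any of its windows holds a match, and genes differ in their number of windows. The members had 45 windows for 31 genes, and the 7062 genes had 8979. By window, ACGTG was found in 44.4% for the members, 19.6% for all genes with a window and 26.7% for the 7062 genes. CACGTG, each copy of which is also a match to ACGTG, was found for 4 of 31 members (12.9%), 8.09% of all genes with a window and 12.6% of the 7062 genes of at least 5 CPM, so the members' share lay close to the latter. Slc2a3 had no window. A match in these letters is a description of the sequence and not a measured binding site.

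Between genotypes no member was called. In the spleen 0 of 27 members measured passed in either direction, where 1.63% of all genes did, and in LN 0 of 29, where 4.15% did. The median log2 ratio of ICOS FC over ICOS WT was -0.04 over the members and -0.03 over all genes in spleen, and 0.00 and -0.04 in LN. Gapdh, Aldoa, Pkm and Ldha, with 5949 to 23316 UMIs per library, had ratios between -0.17 and 0.15, with counting intervals that all lay inside 1.5-fold. Counting intervals excluded equality for 13 of 27 members in spleen, where they did for 31.5% of all genes measured, and for 12 of 29 in LN, against 39.8%. These ratios are under 1.5-fold and have no replicate to be set against.

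Hk2 and Pfkfb3 came nearest to the threshold in LN. The Hk2 log2 ratio of ICOS FC over ICOS WT was 0.44 [0.21, 0.68] in LN, and 0.74 [0.31, 1.18] in spleen, where it stayed under 5 CPM and so was not measured by the rule. Pfkfb3 was at 9.50 CPM in the ICOS WT and 6.52 CPM in the ICOS FC LN library, a log2 ratio of -0.54 [-0.91, -0.18]. Both were called in LN when the 5% of cells with most UMIs were left out, so these 2 genes lie at the edge of the rule. Rpia was at 47.1 and 57.8 CPM in LN, a ratio of 0.30 [0.15, 0.44], and at 45.9 and 42.3 CPM in spleen, a ratio of -0.12. Pdk1 was lower in ICOS FC in both tissues by its counts, at -0.25 [-0.35, -0.16] and -0.21 [-0.36, -0.05], both under 1.5-fold. Cluster 4 made up 7.27% of the cells of the ICOS WT and 10.5% of the ICOS FC LN library, and without it Hk2 was at 6.60 and 9.15 CPM.

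Within a tissue the authors' deposited clusters differed more than the genotypes did. The clusters were made from these same cells, so the following values describe them and are no test. In LN the summed level of the 32 genes ran from 2590 CPM in cluster 5, led by the interferon-induced genes Rsad2 and Oasl1, to 6655 CPM in cluster 4 for ICOS WT, and from 2287 to 6292 CPM in the same clusters for ICOS FC. In the spleen, over clusters with at least 50 cells, it ran from 2607 CPM in cluster 3, led by Satb1, to 4774 CPM in cluster 5 for ICOS WT, and from 2649 to 5029 CPM for ICOS FC. Spleen cluster 5 was led by Nr4a1, Egr3 and Nr4a3, genes switched on by T cell receptor signals, and LN cluster 4 by Shmt1, Hk2, Srm, Ifrd2 and Ctps. Cluster 4 cells also had the most RNA: their median was 13388.5 and 12166 UMIs, against 6591 and 6789 over the whole LN libraries.

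**Figure D2:**
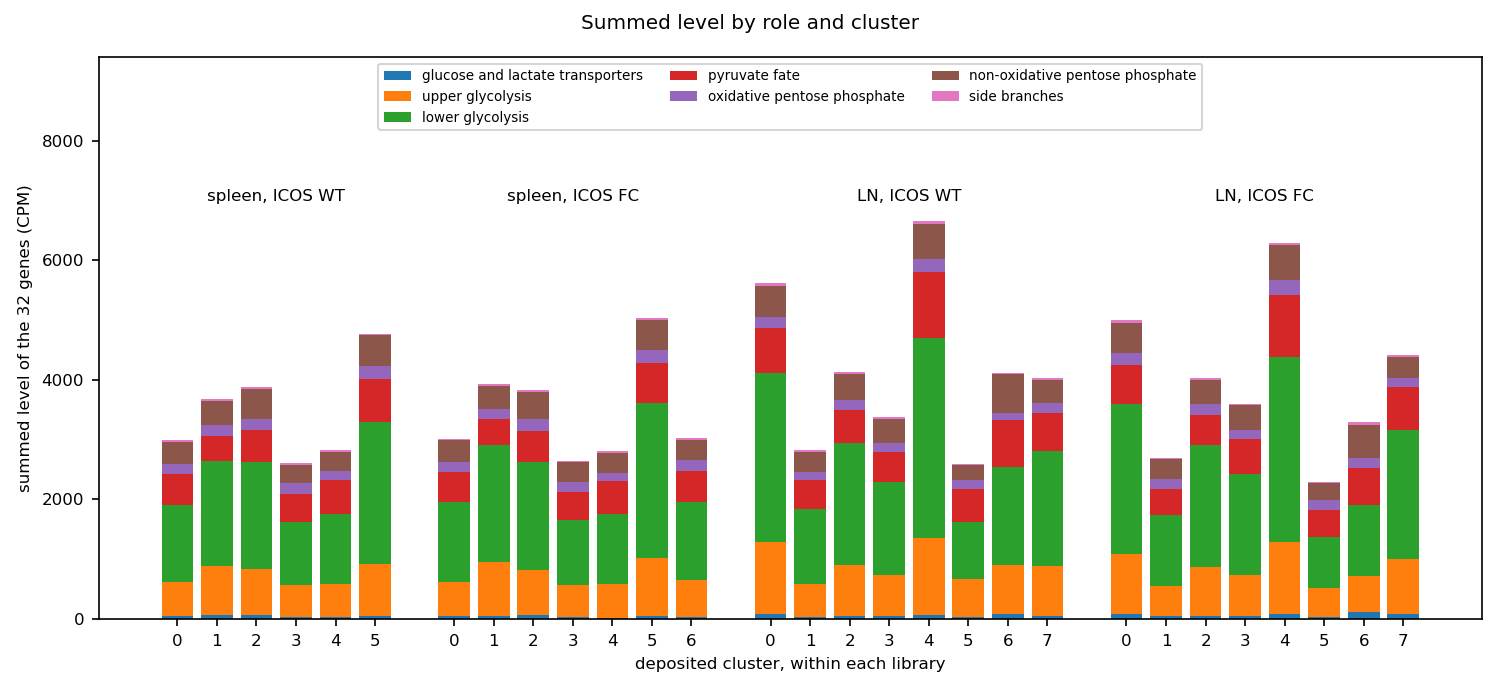
Summed CPM of the 32 genes (vertical axis) in each deposited cluster with at least 50 cells, for the 4 libraries, stacked by role. The tallest bars are LN cluster 4, at 6655 and 6292 CPM, LN cluster 0, at 5620 and 4999 CPM, and spleen cluster 5, at 4774 and 5029 CPM; lower glycolysis is the largest block throughout.

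In LN cluster 4 glycolysis genes were high along most of the pathway. Set against the other LN cells, 13 of 29 members were called higher in both libraries, where 18.4% of all genes were, and 3 were called lower, where 16.2% were. The 13 were Hk2, Pfkl, Pfkfb3, Aldoa, Tpi1, Pgk1, Pgam1, Pkm, Ldha, Slc16a1, Pgd, Rpia and Tkt, and the 3 were Slc2a3, Ldhb and Pdk1. Hk2 was at 73.4 CPM in the cluster and 6.60 CPM in the other cells for ICOS WT, and at 76.2 and 9.15 CPM for ICOS FC. Slc16a1 was at 38.0 against 6.52 CPM and at 31.7 against 6.32 CPM. Pgam1 was at 304 against 101 CPM and 289 against 104 CPM, and Tpi1 at 237 against 85.9 CPM and 248 against 89.4 CPM. The cluster held 15.4% and 20.6% of the UMIs of the LN libraries, but 66.9% and 68.3% of the Hk2 UMIs and 51.5% and 56.5% of those of Slc16a1. Pdk1 was lower, at 13.8 against 51.4 CPM and 16.3 against 45.6 CPM, and so was Ldhb, at 7.34 against 34.2 CPM and 19.3 against 35.7 CPM. Foxp3 was at 32.4 CPM in the cluster and 79.5 CPM in the other LN cells for ICOS WT, and at 36.4 and 79.6 CPM for ICOS FC. A Foxp3 UMI was found in 54 of 138 and 95 of 217 cells of the cluster, at their greater depth. The summed Treg markers were at 3280 against 3344 CPM and 4178 against 3753 CPM. The summed CD8 T and NK cell markers were at 252 against 177 CPM for ICOS WT and 56.6 against 101 CPM for ICOS FC, with Cd8a at 29.8 against 9.27 CPM and 7.29 against 8.57 CPM; their part in the cluster's levels was not tested. The clusters rest on the expression of these cells, and which genes entered the clustering is not known here.

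**Figure D3:**
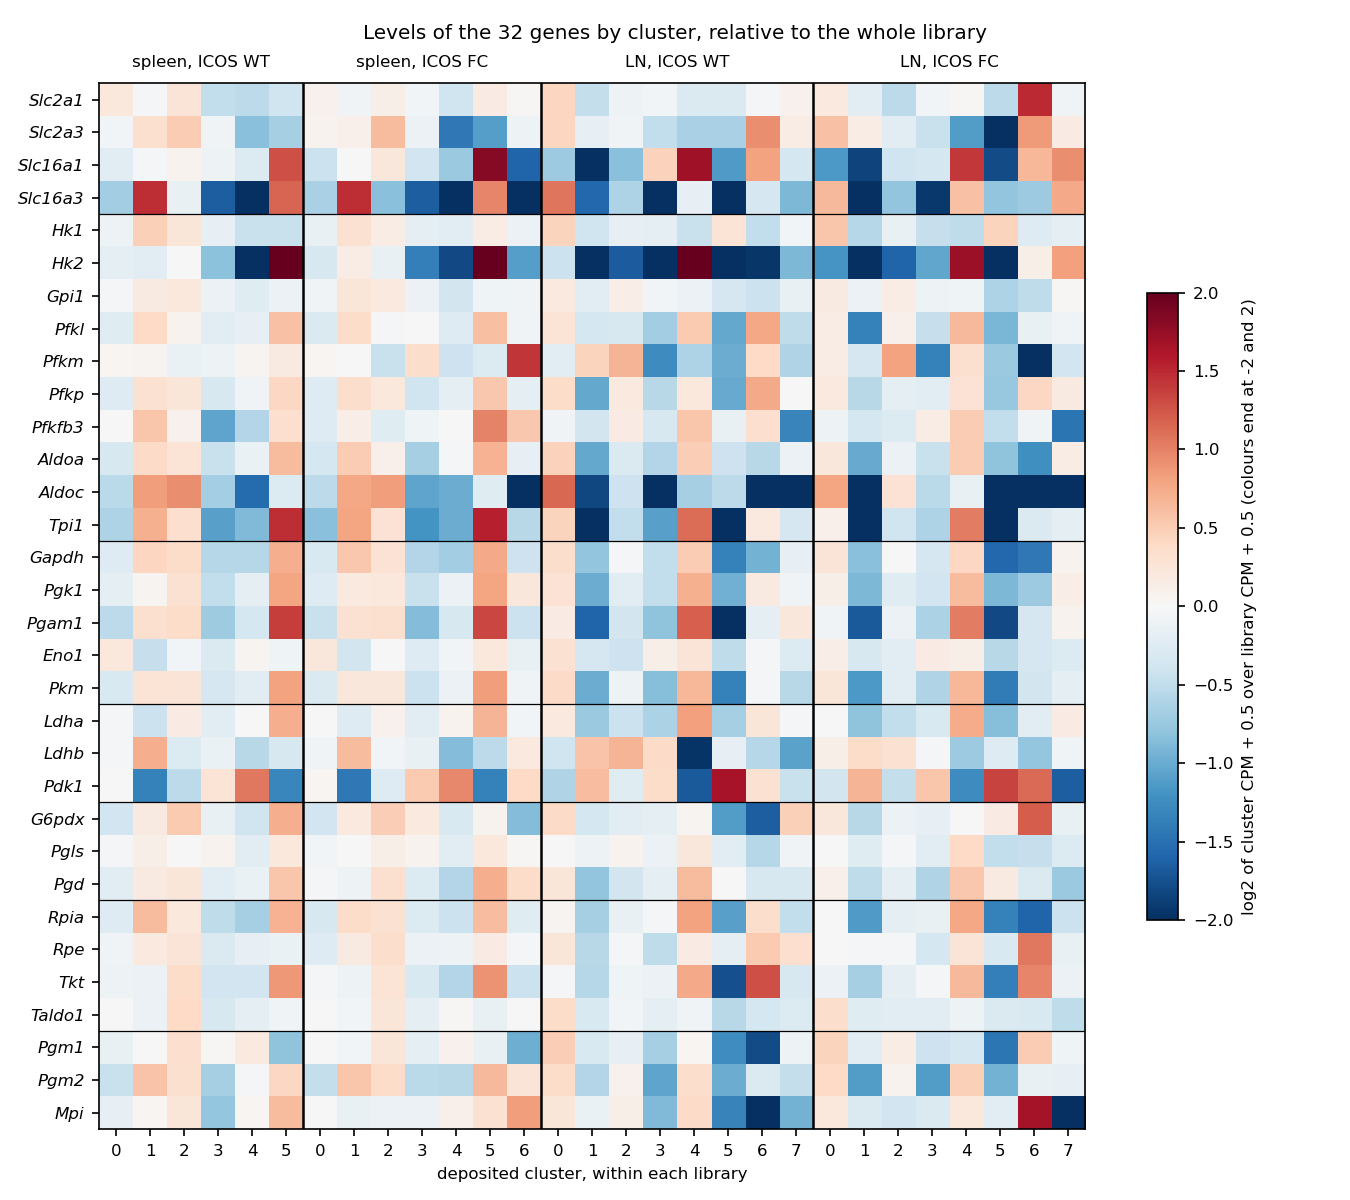
Level of each of the 32 genes (rows, by role) in each deposited cluster (columns, 4 libraries) as the log2 of cluster CPM plus 0.5 over library CPM plus 0.5; red is above and blue below the library's own level. LN cluster 4 and spleen cluster 5 are red for Hk2, Tpi1, Pgam1, Pkm, Ldha and Slc16a1 and blue for Pdk1 in both genotypes, and LN clusters 1 and 5 are blue for most of glycolysis.

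Spleen cluster 5 had nearly the same list, although those mice had no challenge. Against the other spleen cells 14 of 29 members were called higher in both libraries (12.7% of all genes) and 2 lower (8.57%). The 14 were Hk2, Pfkl, Aldoa, Tpi1, Gapdh, Pgk1, Pgam1, Pkm, Ldha, Slc16a1, Slc16a3, Pgd, Rpia and Tkt, of which all but Gapdh and Slc16a3 were also on the list of LN cluster 4. The 2 lower were Slc2a3 and Pdk1, and Ldhb was not among them. Hk2 was at 14.6 CPM in this cluster and 1.88 CPM elsewhere for ICOS WT and at 23.9 and 3.20 CPM for ICOS FC, so its peak in the spleen lay below that in LN cluster 4. Tpi1 was at 114 against 36.1 CPM and 149 against 44.0 CPM. These cells were 3.84% and 3.85% of the spleen libraries, with median UMIs of 7186 and 5923.

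At the other end, LN clusters 1 and 5 were low along the pathway with Pdk1 high. In cluster 1, led by Ly6c1, Igfbp4 and Bcl2, 15 of the members measured were called lower in both libraries (19.4% of all genes) and Pdk1 alone higher (2.04%). In cluster 5, 12 were called lower (15.6%) and again Pdk1 alone higher (3.19%). Tpi1 was at 22.1 and 27.4 CPM in cluster 1 and 20.8 and 11.96 CPM in cluster 5. Pgam1 was at 43.5 and 43.8 CPM and at 33.0 and 40.4 CPM. Pdk1 reached 144 and 102 CPM in cluster 5, its highest level in LN. In the spleen Pdk1 was highest in cluster 4, at 138 and 108 CPM. That cluster, led by Pdlim4, Dapl1 and Pde3b, was 14.8% and 11.1% of the spleen cells. It was nearly without Foxp3, at 2.17 and 6.38 CPM, which goes against the name Treg for these cells. They were sorted on YFP, whose driver is not given. Of 27 members measured in spleen cluster 4, Pdk1 alone was called higher (1.75% of all genes). Lower were 4 members, Slc2a3, Tpi1, Gapdh and Ldhb (10.7% of all genes). Hk2 had no UMI in ICOS WT cells of LN cluster 5, where 3 UMIs would be 3.66 CPM, and 1.49 CPM in ICOS FC cells.

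Other clusters had calls for fewer members, but LN cluster 0 was high in sum. It held 27.7% and 33.0% of the LN cells (WT, FC), with a summed level second to cluster 4, at 5620 and 4999 CPM. Aldoa was there at 543 and 413 CPM, Gapdh at 1536 and 1363 CPM and Pkm at 611 and 555 CPM. Against the other LN cells, cluster 4 among them, the median log2 ratio was 0.44 and 0.21 over the members. Over all genes it was 0.12 and 0.14. LN cluster 0, led by S100a4, S100a6, Lgals3 and Ccr2, was called higher for Slc16a3 (22.1 and 16.97 CPM), Slc2a3 (34.3 and 41.2 CPM), Hk1, Aldoc and Pgm1 and lower for Hk2 (12.4 and 9.90 CPM) and Slc16a1 (6.64 and 4.95 CPM), where 10.1% of all genes were higher and 5.29% lower. Its Slc16a3 level was the highest of the LN clusters for ICOS WT and second to cluster 7 for ICOS FC. The cells it was set against include cluster 4, which held most Hk2 UMIs: over all LN cells outside cluster 4 Hk2 was at 6.60 and 9.15 CPM, below its level in cluster 0. Spleen cluster 1, led by Lag3, Itgb8 and Epcam, was called higher for Ldhb, at 101 and 102 CPM against 53.6 and 57.2 CPM elsewhere, and for Slc16a3, Tpi1, Aldoc and Pgm2 (13.5% of all genes), and lower for Pdk1 (2.74%). Tkt was highest in LN cluster 6, at 366 and 305 CPM, cells of low depth with median UMIs of 2022 and 1787.5. In this cluster, led by Kif15, Nup210 and Med13, 15.3% of all genes were called higher and 2.95% lower. The deposited cell cycle phase was G2M for 24.2% and 22.5% of its cells, and the proliferation gene Mki67 was at 326 and 211 CPM. Gapdh was lower there, at 624 and 423 CPM. In LN cluster 3, led by Bcl2 and Gpr83, 6 members were called lower and none higher (7.23% and 0.644% of all genes), Hk2, Tpi1 and Pgam1 among them, and in LN cluster 2 Hk2 alone was lower (3.06% of all genes, against 3.39% higher). The cells that clusters 2 and 3 were set against include cluster 4 as well. Hk2 in cluster 3 was at 3.74 and 10.9 CPM, beside the 6.60 and 9.15 CPM of all LN cells outside cluster 4. LN cluster 7 was led by Egr3, Cd8a, Klrd1, Ifitm1 and Nr4a3, of which Egr3 and Nr4a3 also led spleen cluster 5. Cd8a was at 174 and 170 CPM in LN cluster 7, Cd4 at 157 and 88.1 CPM and Foxp3 at 45.7 and 28.7 CPM. This cluster had no member called in either direction (2.17% of all genes higher, 1.67% lower).

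The 3 remaining spleen clusters differed from the rest of the spleen cells for few members. Cluster 0, led by Gpr83 and Bcl2, had 3 of 27 called lower, Tpi1, Pgam1 and Pgm2, and none higher (7.56% and 0.903% of all genes). Cluster 3 had 4 of 27 called lower, these 3 genes and Gapdh, and none higher (5.51% and 1.04%). Tpi1 was at 26.5 and 27.9 CPM in cluster 0 and 18.9 and 21.7 CPM in cluster 3, against 67.5 and 87.2 CPM in cluster 1. Cluster 2, led by Ccr2, S100a4 and S100a6, had Slc2a3, Aldoc and G6pdx called higher of 28 (8.77%) and none lower (2.20%). Slc2a3, the gene of GLUT3, was there at 35.9 and 44.9 CPM against 23.1 and 25.8 CPM elsewhere, as in LN cluster 0, which is led by the same S100 genes.

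**Figure D4:**
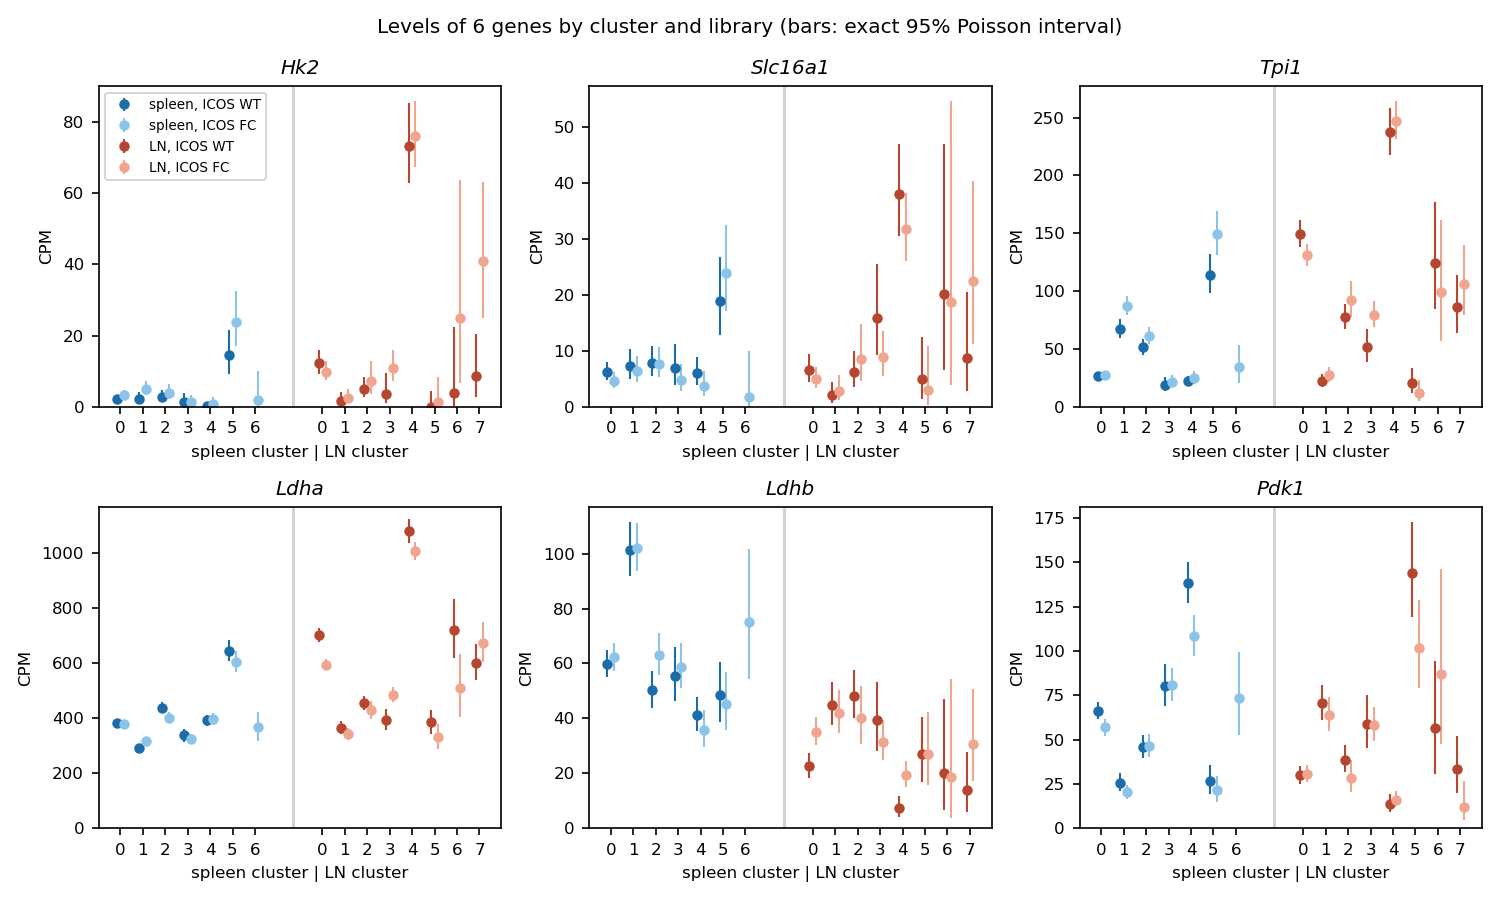
CPM (vertical axis, linear) of 6 genes in each deposited cluster with at least 50 cells, spleen clusters left and LN clusters right of the grey line; points are libraries, bars exact 95% Poisson intervals. Hk2, Slc16a1, Tpi1 and Ldha peak in LN cluster 4, Ldhb in spleen cluster 1 at 101 and 102 CPM, and Pdk1 in spleen cluster 4 and LN cluster 5.

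The genotypes were also compared inside each cluster, over 26 to 30 members per cluster. No member was called in 5 of the 14 clusters compared, spleen clusters 0, 2 and 3 and LN clusters 2 and 5, where 1.82%, 5.29%, 3.49%, 8.39% and 5.39% of all genes were. In the spleen, Pfkfb3 was lower for ICOS FC in cluster 1 (7.27% of all genes called), at 12.9 and 7.99 CPM, Pgd in cluster 4 (3.23%), at 24.1 and 15.5 CPM, and G6pdx in cluster 5 (5.84%), at 20.1 and 10.7 CPM. In LN cluster 4 (6.86% of all genes) Ldhb was at 7.34 CPM (17 UMIs) for ICOS WT and 19.3 CPM (69 UMIs) for ICOS FC, and Slc16a3 at 9.07 and 16.3 CPM. Ldhb was also higher for ICOS FC in LN cluster 0 (7.42% of all genes), at 22.6 and 35.2 CPM, a log2 ratio of 0.64 [0.29, 1.00]. In LN cluster 3 (6.83% of all genes) Tpi1 was at 51.4 and 79.4 CPM and Hk2 at 3.74 and 10.9 CPM, the latter on 4 and 27 UMIs. In LN cluster 7 (7.09%) Hk2 was at 8.80 and 41.0 CPM on 5 and 20 UMIs, and Pdk1 at 33.4 and 12.3 CPM. Pfkl was lower for ICOS FC in LN cluster 1 (5.02%), at 27.3 and 13.2 CPM, and the shallow LN cluster 6 (5.21%) had Aldoa and Pgk1 lower and G6pdx higher on 1 to 67 UMIs each. Of 14 such calls, 7 were higher and 7 lower in ICOS FC, and no member was called in the same direction in a cluster of each tissue.

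Isoenzyme shares give the same counts within a family, free of the library total. Hk2 took 6.12% [4.82, 7.65] of the Hk1 and Hk2 UMIs in the ICOS WT spleen library, 10.2% [8.59, 12.1] in ICOS FC spleen, 24.7% [22.1, 27.5] in ICOS WT LN and 33.9% [31.2, 36.7] in ICOS FC LN. The intervals of the 4 libraries, for counting error alone, do not overlap, and the share was higher in ICOS FC than in ICOS WT in both tissues. Each group is 1 library, and Hk2 stayed under 5 CPM in the spleen. LN cluster 4 held 66.9% and 68.3% of the LN Hk2 UMIs and was 7.27% and 10.5% of the LN cells (WT, FC). In LN cluster 4 the Hk2 share was 66.1% and 70.8%, and in spleen cluster 5 32.9% and 35.7%, where the intervals of the genotypes did overlap. Ldhb took 13.4% [12.8, 14.1] and 14.7% [14.1, 15.4] of the lactate dehydrogenase UMIs in spleen and 4.70% [4.28, 5.14] and 5.12% [4.72, 5.55] in LN. It was 25.9% and 24.4% in spleen cluster 1 and 0.675% and 1.88% in LN cluster 4. Slc16a3 took 33.9% and 36.6% of the UMIs of the lactate transporter pair in spleen and 47.4% and 48.1% in LN, with 76.9% and 77.4% in LN cluster 0 and 19.3% and 33.9% in LN cluster 4. A 3' count carries no transcript length, so a share compares libraries and says nothing of protein amounts.

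**Figure D5:**
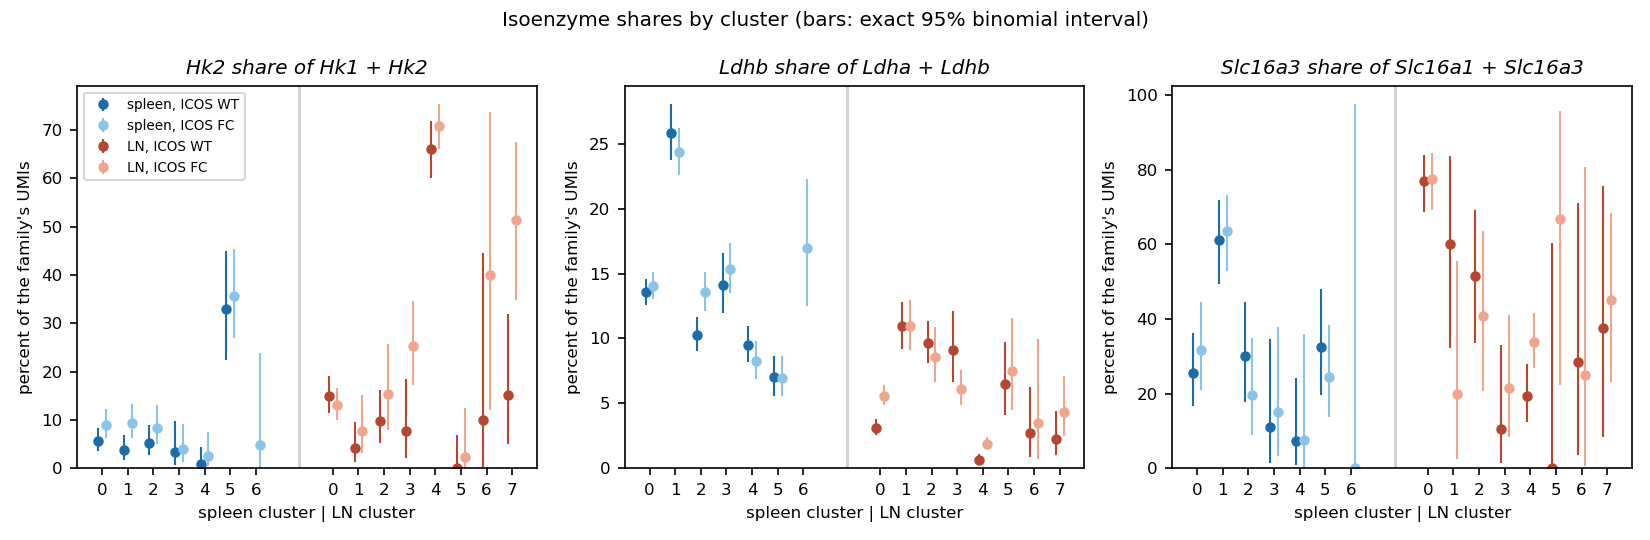
Share (percent) of a family's UMIs taken by Hk2, Ldhb and Slc16a3 in each deposited cluster with at least 50 cells; points are libraries, bars exact 95% binomial intervals. The Hk2 share is highest in LN cluster 4 (66.1% and 70.8%), where the Ldhb share is lowest (0.675% and 1.88%), and the Slc16a3 share is highest in LN cluster 0.

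Cells with a transcript followed the summed levels. An Hk2 UMI was found in 1.26% and 1.71% of spleen cells (WT, FC) and in 6.38% and 9.68% of LN cells, and in 47.1% and 50.7% of the cells of LN cluster 4. After each cell was thinned to 2000 UMIs, the Hk2 share was 10.4% and 11.1% in LN cluster 4 and 0.387% and 0.764% in the spleen libraries, so the order remained at equal depth. In LN cluster 5 an Hk2 UMI was found in 0 of 119 ICOS WT cells, which allows a share of cells with a UMI of up to 2.52% by 3 counts, or 3.05% by the exact interval, and in 1 of 104 ICOS FC cells, at median depths of 6983 and 6318 UMIs; transcripts free in the droplets would show there too. Across the deposited cell cycle phases the summed level of the 32 genes was 3220 CPM in G1, 3398 CPM in S and 3421 CPM in G2M cells of the ICOS WT spleen library, and 3257, 3536 and 3348 CPM for ICOS FC. In the LN libraries it was 3979 CPM in G1, 6067 CPM in S and 6255 CPM in G2M for ICOS WT, and 3721, 5727 and 6308 CPM for ICOS FC. Cells of cluster 4 were called S phase more often than LN cells as a whole, at 35.5% and 31.3% against 17.2% and 19.0%, and the part of phase or depth in the levels was not tested. In G1 cells outside cluster 4 the LN sums were 3804 and 3474 CPM, closer to the 3220 and 3257 CPM of G1 cells in the spleen than the sums of all LN cells were to theirs, and without cluster 4 but in all phases they were 4196 and 3998 CPM. G1 was called for 59.3% and 57.6% of spleen cells (WT, FC) and for 79.1% and 76.8% of LN cells. Yet the proliferation gene Mki67 was at 7.14 and 10.6 CPM in spleen and at 41.2 and 73.9 CPM in LN. Whether a phase call means the same in both tissues was not tested, so the G1 subsets are not matched sets of resting cells.

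The calls in lists of related genes stand beside 13.7% higher and 2.67% lower over all genes for ICOS WT and 15.6% and 4.22% for ICOS FC. Of the other glycolysis enzymes, 7 of 25 listed were measured for ICOS WT and 6 for ICOS FC, a count that includes the member Tpi1. Besides Tpi1 only Tigar, which lowers fructose bisphosphate levels, was called higher in LN, at 6.3 and 5.7 CPM in spleen and 10.7 and 11.4 CPM in LN, and Eno3 was called lower for ICOS FC. Of 9 measured genes for the entry of pyruvate into mitochondria, such as the carrier and dehydrogenase subunits, none was called for ICOS WT and Pdk3 was called higher for ICOS FC, at 12.7 CPM in the spleen and 19.96 CPM in the LN library. The list of other pentose phosphate, nucleotide sugar and glycogen genes, which includes the member Gpi1, had 21 measured genes. Of these, 4 were higher and 2 lower for ICOS WT and 5 and 2 for ICOS FC. Among those higher in both were Gfpt1, Gmppb and Galk1, which act in hexosamine, mannose and galactose metabolism, and those lower were Gbe1, the glycogen branching enzyme, and Khk, ketohexokinase. Between genotypes none of these 3 lists had a call in either tissue.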

How the data were processed

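Libraries were made with the 10x Genomics 3' kit from sorted cells, 12000 of which were prepared, per the labels' protocols. Per the submitters' processing notes the tools were Cell Ranger 4.0.0, Seurat 3.0 and R 3.6.1, with the mouse build GRCm38.p6 (mm10). The sources used here do not state what each did, which annotation was used or whether doublets were removed. The values the authors deposited are a natural log, taken of a gene's UMIs per 10000 in its cell after adding 1, and with them came each cell's UMI count, percent of mitochondrial counts, phase and cluster. Multiplying back by the deposited UMI count gave whole UMIs for 100% of values (within 0.001) in 10912 spleen and 3963 LN cells. The genotype entries read Control and KO and were taken as ICOS WT and ICOS FC from the words alone. No cell filter or doublet caller was added. UMIs were summed per library or cluster, divided by the total and compared as log2 ratios, with exact conditional Poisson intervals (scipy 1.17.1). Medians use CPM plus 0.5. Clusters with under 50 cells in a library were left out, as were phase scores and UMAP coordinates. The design planned the comparison of LN cluster 4 with the other LN cells, and the same for the other clusters was added. The calculation was tested on simulated counts. All 32 members are named by the rule; those past 1.5-fold in a comparison or with 100.0 CPM in a library are given in each library. Members and lists were chosen with earlier results of these data known. Alternatives covered scaling, thresholds, depth and subsets of cells. Libraries of 15045805 to 28256866 UMIs put 3 UMIs at 0.106 to 0.199 CPM, for counting error only. The replicate number of each group is 1. Symbols matched GENCODE M21 for 21875 of 22056 genes.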

Additional observations from a re-analysis of the deposited data

Results flagged for a closer look

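Gapdh and Rpia had ICOS FC over ICOS WT ratios of opposite sign in the 2 tissues, with counting intervals that exclude equality in each. The log2 ratio of Gapdh was 0.15 in spleen and -0.068 in LN. That of Rpia was -0.12 in spleen and 0.30 in LN. All 4 ratios are under 1.5-fold, each rests on 1 library per group, and the difference between the tissues was not tested.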

How the results depend on the processing

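For LN over spleen the direction of the member medians held in every alternative, and the counts did not. The median of all genes lay above equality too, except under the 3 scalings, where it lay below. After thinning it was 0.13 for ICOS WT, with 1094 of 8719 genes higher, and 0.12 for ICOS FC, with 1132 of 8656. In G1 cells outside LN cluster 4 it was 0.08 for ICOS WT, with 961 of 8595 genes higher, and 0.06 for ICOS FC, with 867 of 8519. Without LN cluster 4 it was 0.10 and 0.08. For ICOS WT (11 higher, 1 lower, median 0.34) the number higher was 6, with 2 lower, under median-of-ratios size factors, trimmed mean of M values factors and totals without ribosomal and mitochondrial genes, at medians of 0.19, 0.18 and 0.17. It was 7 at a minimum of 20 CPM, 3 at 2-fold, 5 without LN cluster 4, 7 without the 5% of cells with most UMIs, 5 in G1 cells (median 0.20), 4 in G1 cells outside LN cluster 4 (median 0.19), 5 after thinning to 2000 UMIs (median 0.17) and 5 with cells averaged by their own CPM; 2 were lower at the looser fold threshold and in cells under 5% mitochondrial counts. For ICOS FC (12 higher, 1 lower, median 0.45) 2 were lower under the 3 scalings, at the looser fold threshold, in cells under 5% mitochondrial counts and in G1 cells outside LN cluster 4. The number higher was 6 under trimmed mean factors (median 0.31) and without ribosomal and mitochondrial genes (0.30), 3 at 2-fold, 6 without LN cluster 4 (0.23), 7 in G1 cells (0.21) and 5 in G1 cells outside LN cluster 4 (0.15); leaving out the 5% of cells with most UMIs gave a median of 0.32, and it was 0.28 after thinning and 0.28 with cells averaged by their own CPM. The cause was not tested. Slc16a1 reversed for ICOS WT without LN cluster 4 (-0.18), in G1 cells outside it (-0.47) and after thinning (-0.35), and for ICOS FC without LN cluster 4 (-0.027) and in G1 cells outside it (-0.39).

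For ICOS FC over ICOS WT, where no member was called, 1 member was higher in spleen at a minimum of 1 CPM and with clusters weighted equally. In LN 1 was higher and 1 lower at the looser fold threshold, without the 5% of cells with most UMIs, in G1 cells, with cells averaged by their own CPM and with clusters weighted equally; 1 was lower without LN cluster 4, 1 was higher in G1 cells outside it and 2 were higher after thinning. In LN cluster 4 against the rest (13 higher, 3 lower) 1 was lower after thinning and in G1 cells. The Hk2 share of hexokinase UMIs in ICOS WT spleen was 4.68% after thinning and 8.20% in cells with a Foxp3 UMI. In ICOS WT LN it was 16.6% after thinning, 15.8% in G1 cells and 29.4% in cells with a Foxp3 UMI, and in ICOS FC LN 23.6%, 25.7% and, without barcodes that libraries share, 30.6%. The Ldhb share was 14.7% in ICOS WT spleen cells with a Foxp3 UMI, 6.20% after thinning and 6.05% in G1 cells of ICOS WT LN, and 6.97%, 6.88% and, without shared barcodes, 5.56% in ICOS FC LN. Leaving out shared barcodes and the G1 cells outside LN cluster 4 were chosen after seeing the data. No paired analysis was possible because each group is 1 library and no result comes from a test. Depth limits Hk2, Slc16a3, Slc16a1, Mpi, Aldoc and Pfkm in the spleen, at 70 to 201 UMIs per library.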

Other observations

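Genes around the pathway, taken from lists of related genes, were also described in LN cluster 4, where 18.4% of all genes were called higher and 16.2% lower than in the other LN cells. Of 19 measured genes of Myc, glucose sensing and mTORC1 control, Myc and Akt1 were higher and Mxd1, Mxd4, Txnip, Tsc1 and Foxo1 lower in both libraries. Myc, a driver of growth genes, was at 145 CPM in the cluster and 47.3 CPM elsewhere for ICOS WT, and at 199.6 and 64.7 CPM for ICOS FC. Txnip, whose product restrains glucose uptake, was at 50.5 against 260.3 CPM and at 42.6 against 274 CPM. Of 14 measured genes for NADPH and the NRF2 response, 7 were higher and none lower: Gclm, Gsr, Txnrd1, Shmt2, Mthfd1, Txn1 and Prdx1. Of 16 measured hypoxia response genes outside glycolysis, 3 were higher (Egln3, Ero1l and Higd1a) and 4 lower (Arnt, P4ha1, Bnip3l and Kdm3a). Foxp3 was lower per UMI in the cluster, at 32.4 against 79.5 CPM and 36.4 against 79.6 CPM. A Foxp3 UMI was found in 54 of 138 and 95 of 217 cells of the cluster. In the whole LN libraries it was found in 708 of 1897 and 804 of 2066 cells. The cluster's cells had more UMIs, and these cell counts were not set to equal depth.

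In spleen cluster 5, where 12.7% of all genes were higher and 8.57% lower than in the other spleen cells, Myc was the one gene of the same 19 called higher, and Mxd4, Mlxip, Txnip and Rictor were lower. Of 14 measured hypoxia response genes, Hif1a, Ankrd37 and Higd1a were higher and Bnip3l and Mxi1 lower. Between the whole libraries, Hif1a was at 104 and 118 CPM in spleen (WT, FC) and at 222 and 231 CPM in LN, and Txnip at 366 and 351 CPM in spleen and 228 and 226 CPM in LN. Of 16 measured hypoxia response genes, 3 were called higher in LN and 0 lower for ICOS WT, and 6 and 1 for ICOS FC. Of the 19 Myc, glucose sensing and mTORC1 genes, 1 was higher and 3 lower for WT, and 3 and 3 for FC. Over all genes the shares were 13.7% and 2.67% for WT and 15.6% and 4.22% for FC.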
